A study of Homo sapiens with 8 samples.

Results

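The genes described here are 37 genes of the lysosome and of autophagy, given as a list of symbols and found by their Ensembl identifiers among the 64253 genes of each count table. All 37 passed the filter on low counts, which left 20305 genes for testing. They comprise 5 lysosomal membrane proteins, 7 lysosomal proteases, 8 other lysosomal enzymes or their cofactors, 6 genes of the vacuolar ATPase, 2 transcription factors, 3 genes that start the autophagosome, 2 genes of the conjugation step and 4 genes of the ATG8 proteins and their cargo receptor. RNA-seq was done on HCT-8, a human colon cancer cell line sensitive to 5-fluorouracil (5-FU), on its 5-FU-resistant counterpart HCT-8/FU, and on HCT-8 cells kept in conditioned medium (CM). CM was taken off cultured cells after 48 h, and came either from the parental line (CM of HCT-8, called own CM here) or from the resistant line (CM of HCT-8/FU, called resistant CM here). How long the cells stayed in it is not given in the labels. HCT-8 and HCT-8/FU grew in unconditioned medium, so by the labels the CM groups differ from HCT-8 in their medium, and the labels name no 5-FU treatment of any group. Each group had 2 replicates of these lines, 8 libraries in all. Nothing says that the replicates were separate cultures, so p-values measure only the spread between these libraries, which may be technical.

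The lysosome is the acidic compartment in which proteases, glycosidases and lipid-handling enzymes break down what the cell takes up or discards. Its acidity is kept by the vacuolar ATPase, a proton pump. In autophagy a membrane grows around cytoplasm, is decorated with ATG8 proteins (the LC3 and GABARAP families), closes into an autophagosome and fuses with the lysosome. TFEB and TFE3 are transcription factors that bind a motif called CLEAR in the promoters of many lysosomal genes, and they are held in the cytoplasm when nutrients are plentiful.

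Promoter sequences from RefSeq (GRCh38.p14), each 300 bases around a gene's start, were found for 30 of the 37 genes and not for ATP6V1A, ATP6V1B2, ATP6V1H, CTSB, HEXA, LAMP2 and PSAP. The letters searched, on both strands, were the full CLEAR motif (the core TCACGTGA with a G before and a C after it), the core alone, the E-box CACGTG inside both, and the cyclic AMP response element TGACGTCA. The core occurred in 5 of the 30 genes, against 1.18% of 27305 genes with promoters of the same length. GAA and MCOLN1 held the full motif, against 0.421%. CTSD held the E-box only, which 8.77% of all genes searched hold. The windows below show the core in capitals in its sequence context, and the full motif of MCOLN1 lies outside its window. For GABARAPL1 they show the response element, which 1 of the 30 genes and 2.25% of all genes searched hold. LAMP1, CTSA and GAA rose in own CM and GABARAPL1 fell, while MCOLN1 and ATP6V0D1 did not pass the test there. With the correction for base composition described below, only CTSA of the first 3 rose. Of the genes searched without a core found, SCARB2, CTSD, CTSH, CTSZ, GUSB, NPC2 and ATP6AP1 also rose there, and SCARB2, CTSH and CTSZ with the correction. In HCT-8/FU against HCT-8, LAMP1, GAA, MCOLN1 and ATP6V0D1 fell, and only ATP6V0D1 with the correction. Whether a motif goes with these changes was not tested.
LAMP1, chr13:113297199-113297228, plus strand: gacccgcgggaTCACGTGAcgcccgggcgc
CTSA, chr20:45891298-45891327, plus strand: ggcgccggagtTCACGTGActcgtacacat
GAA, chr17:80101493-80101522, plus strand: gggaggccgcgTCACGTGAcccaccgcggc
MCOLN1, chr19:7522571-7522600, plus strand: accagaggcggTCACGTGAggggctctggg
ATP6V0D1, chr16:67481199-67481228, minus strand: cccccttatggTCACGTGAggcgcttgcgc
GABARAPL1, chr12:10212847-10212876, plus strand: TGACGTCAcagcccgacgcgccacccagct
None of the motifs searched was found in the promoters of WIPI1, MAP1LC3B and SQSTM1. A match describes the letters only, and no binding was measured. Only exact letters within the 300 bases were searched, so variants of a motif or sites outside them would be missed.

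Counts on genes lay between 5804124 and 34881349 per library. In HCT-8 replicate 1, HCT-8/FU replicate 2 and own CM replicate 1, between 20% and 29.6% of the records were not aligned, against 3.58% to 4.43% in the other 5 libraries. Counts followed base composition differently between groups, and over 19857 genes the Spearman correlation of log2 fold change with GC content was 0.301 for own CM and −0.142 for resistant CM against HCT-8, −0.398 for resistant against own CM, and −0.397 for HCT-8/FU against HCT-8. Values after removing each library's trend with GC content and exonic length (the GC correction) are therefore given beside the results they change. All 7 markers of colon epithelium were at 1 CPM or more in every library, at a summed 9305 to 11601 CPM. The 4 fibroblast markers summed to between 12.5 and 22.0 CPM with 1 at 0 throughout, and the 3 leukocyte and the 3 endothelial markers to at most 1.96 and 2.45 CPM.

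Levels are given as CPM, counts scaled to the TMM-normalized size of the library. Between genes they are compared only per kilobase of the canonical transcript. In HCT-8, SQSTM1, the receptor p62 that carries ubiquitinated cargo into autophagosomes, stood first at 811 CPM per kilobase. PSAP, the precursor of the saposins that help lipid breakdown, followed at 584, and CTSD, the aspartic protease cathepsin D, at 164. TFEB was the lowest at 3.39 CPM per kilobase and kept the last place in all 4 groups. SQSTM1 and PSAP held the first and second places in every group, with PSAP first in own CM. WIPI1 moved most in this order, from place 9 in HCT-8 to 22 in both CM groups and to 28 in HCT-8/FU.

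**Figure D1:**
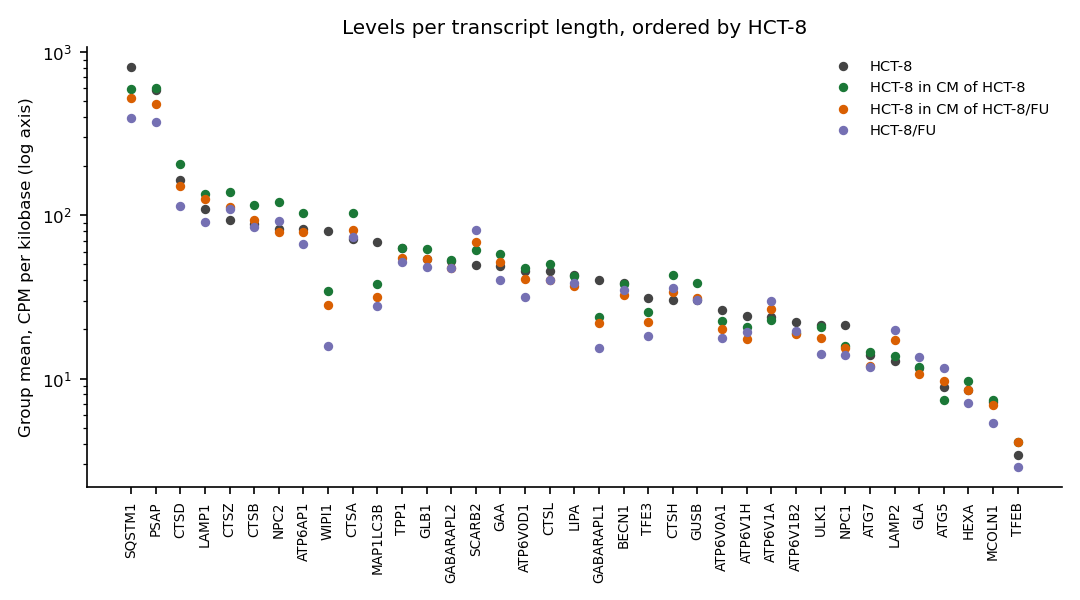
Mean level of each of the 37 genes in the 4 groups, in CPM per kilobase of canonical transcript on a log axis, ordered by the level in HCT-8; each point is the mean of 2 libraries. SQSTM1 and PSAP stand above all other genes and TFEB lies at the bottom in every group, and the points of WIPI1, MAP1LC3B and GABARAPL1 spread furthest apart, with HCT-8 on top.

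The first question was how these genes stood in HCT-8 cells in CM against those in unconditioned medium. WIPI1, MAP1LC3B, GABARAPL1 and SQSTM1, of the 9 genes of autophagosome formation, ATG8 proteins and cargo receptor, fell in CM of either source. Of the 7 lysosomal proteases, 5 rose in own CM, where 9.04% of all tested genes rose at the false discovery rate given below. In resistant CM 1 rose and 1 fell, near the 13% and 11.7% of all tested genes. WIPI1, which binds phosphoinositides on the growing membrane, was 2.37-fold lower in own CM and 2.85-fold lower in resistant CM. MAP1LC3B, which encodes LC3B, was 1.81-fold and 2.17-fold lower, and GABARAPL1, of the other ATG8 family, 1.70-fold and 1.83-fold lower. These comparisons share the HCT-8 libraries, so they are set side by side and are not independent of each other.

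In own CM against HCT-8, 11 of the 37 genes rose and 6 fell at a false discovery rate (FDR) of at most 0.05, where 9.04% and 10.4% of all tested genes did so. None rose and 3 fell with a log2 fold change of 0.58 or more in size as well, the study's definition of a differentially expressed (DE) gene, against 3.86% and 4.29% of all tested genes. The median log2 fold change was 0.05 over the 37 genes and 0.01 over all tested genes. In resistant CM against HCT-8, 3 rose and 12 fell at the FDR, where 13% and 11.7% of all tested genes did so. None was DE and higher and 4 were DE and lower, against 7.16% and 3.28%, and the median was −0.11 against 0.02 over all tested genes. The counts at the FDR moved with single libraries: without HCT-8 replicate 2 the 11 genes that rose became 3 (CTSA, CTSB and CTSH), and without resistant CM replicate 2 the 12 that fell became 7. HCT-8 replicate 2 was also the TMM reference, so leaving it out changed the scaling of every gene as well. The loss of calls in that setting therefore does not come from this library's values alone. With the GC correction, 6 rose and 6 fell in own CM, against 5.6% and 6.52% of all genes so corrected. In resistant CM 0 rose and 11 fell, against 7.3% and 13.7%.

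**Figure D2:**
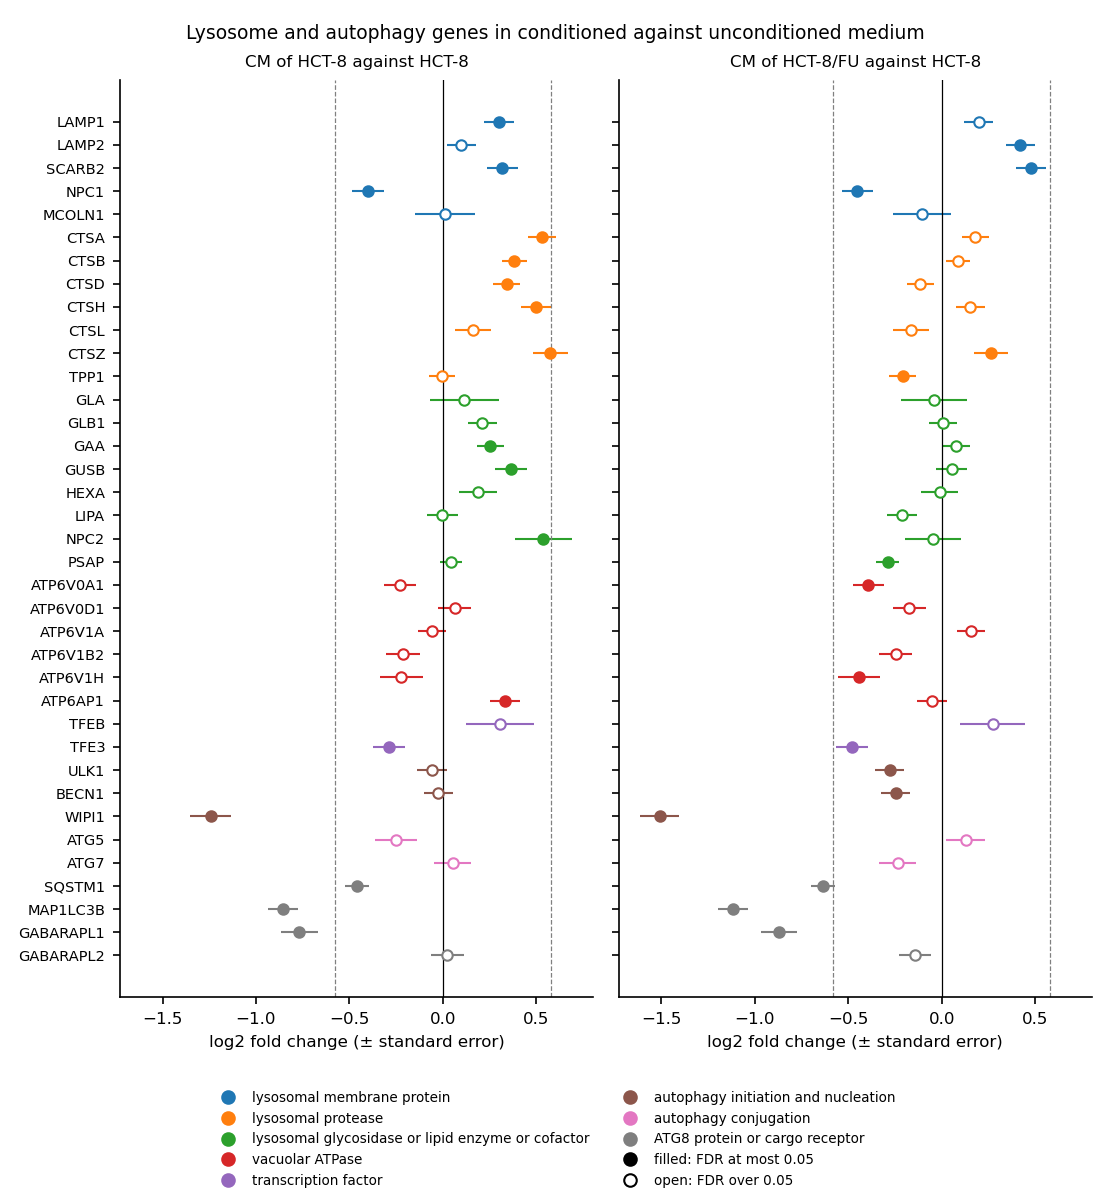
Log2 fold change with its standard error for each of the 37 genes in own CM (left) and resistant CM (right) against HCT-8, coloured by role; filled points passed an FDR of 0.05, and dashed lines mark a log2 fold change of 0.58 in either direction. WIPI1, MAP1LC3B and GABARAPL1 lie beyond the lower dashed line in both panels, and the proteases lie mostly to the right of 0 on the left and around 0 on the right.

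WIPI1 (ENSG00000070540) lies on the minus strand of chromosome 17 of GRCh38, at chr17:68420948-68457513. It stood at 160.2 and 147 CPM in HCT-8, 73.4 and 57.8 in own CM, 54.5 and 53.3 in resistant CM, and 32.4 and 28.2 in HCT-8/FU. No library of any group overlapped with a library of another, and HCT-8 was the highest group. Against HCT-8, WIPI1 changed on the log2 scale by −1.24 in own CM (standard error 0.11, adjusted p = 3.6e-06) and −1.51 in resistant CM (standard error 0.10, adjusted p = 4.2e-07, both from the quasi-likelihood test of edgeR with Benjamini-Hochberg (BH) adjustment over all tested genes). The values in both CM groups differed by −0.27 (standard error 0.11), which missed the FDR (adjusted p = 0.098, same edgeR test). Exons of another gene on the opposite strand cover 28.1% of its exonic bases, and the strand setting of the counting is not given.

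MAP1LC3B (ENSG00000140941, chr16:87383953-87404779, plus strand) stood at 151 and 144 CPM in HCT-8, 76.8 and 85.2 in own CM, 66.6 and 69.1 in resistant CM, and 59.0 and 60.3 in HCT-8/FU. The order of the groups was that of WIPI1, again without overlap. It fell by 0.86 on the log2 scale in own CM (standard error 0.081, adjusted p = 7.4e-06) and by 1.12 in resistant CM (standard error 0.080, adjusted p = 4.8e-07, edgeR quasi-likelihood test, BH-adjusted). Between both CM groups it was lower by a log2 fold change of −0.26 in resistant CM (adjusted p = 0.034, same edgeR test). This small difference passed the FDR in 7 of 19 alternatives and was −0.15 with the GC correction.

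GABARAPL1 (ENSG00000139112, chr12:10212458-10223128, plus strand) stood at 76.1 and 75.6 CPM in HCT-8, 46.7 and 42.8 in own CM, 39.6 and 43.5 in resistant CM, and 31.2 and 27.1 in HCT-8/FU. The libraries of both CM groups overlapped with each other and lay below HCT-8 and above HCT-8/FU. Its log2 fold change was −0.77 (standard error 0.099, adjusted p = 9.6e-05) in own CM and −0.87 (standard error 0.095, adjusted p = 1.6e-05) in resistant CM, by edgeR quasi-likelihood test, BH-adjusted. GABARAPL2, its close relative, lay between 45.6 and 52.5 CPM in all 8 libraries, and none of its differences passed the FDR.

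SQSTM1 (ENSG00000161011, chr5:179806398-179838078, plus strand) stood at 2236 and 2371 CPM in HCT-8, 1635 and 1721 in own CM, 1493 and 1476 in resistant CM, and 1152 and 1079.8 in HCT-8/FU. The groups did not overlap and kept the same order once more. SQSTM1 fell by 0.46 on the log2 scale in own CM (standard error 0.064, adjusted p = 0.00019), short of the fold threshold, and by 0.63 in resistant CM (standard error 0.064, adjusted p = 8.4e-06, edgeR quasi-likelihood test, BH-adjusted). On the opposite strand, exons of another gene cover 22.4% of its exonic bases.

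**Figure D3:**
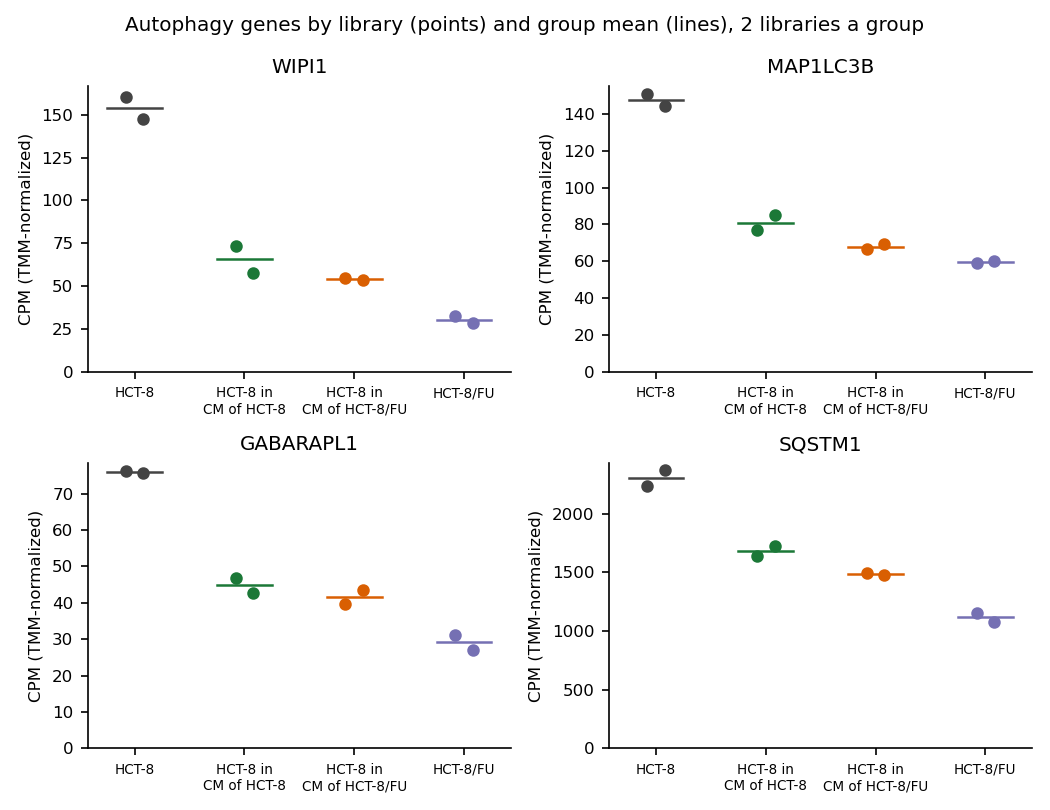
CPM of WIPI1, MAP1LC3B, GABARAPL1 and SQSTM1 in each of the 8 libraries (points) with the mean of each group of 2 (lines), on linear axes that start at 0. HCT-8 is the highest and HCT-8/FU the lowest group in all 4 panels, with both CM groups between them.

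These falls were present both with and without many records not aligned. In the pair of libraries where over 15% of records were not aligned, 1 in each group, WIPI1 differed by −1.13 on the log2 scale between own CM and HCT-8, and in the other pair by −1.35. The values for MAP1LC3B were −0.97 and −0.76, for GABARAPL1 −0.70 and −0.82, and for SQSTM1 −0.45 and −0.46. Resistant CM has no such library, so for it only the others give a value, which was −1.45 for WIPI1, −1.09 for MAP1LC3B, −0.86 for GABARAPL1 and −0.68 for SQSTM1. In all 19 alternatives of the processing, WIPI1, MAP1LC3B and GABARAPL1 stayed DE and lower against HCT-8 in both CM groups. With the GC correction, their log2 fold changes were −1.33, −0.94 and −0.84 in own CM, and −1.49, −1.09 and −0.84 in resistant CM.

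Of the other genes that start or carry out autophagosome formation, none was DE in either CM. ULK1, the kinase that starts autophagy, had a log2 fold change of −0.06 in own CM (adjusted p = 0.69) and fell by 0.28 in resistant CM (adjusted p = 0.018, edgeR quasi-likelihood test, BH-adjusted), though not past the FDR without HCT-8 replicate 2 or without either library in resistant CM, and by 0.41 with the GC correction. BECN1, of the lipid kinase complex that acts next, had −0.02 and −0.25, of which the second passed the FDR (adjusted p = 0.031, same edgeR test), but not with the GC correction (adjusted p = 0.052) or without any 1 of the 4 libraries compared. ATG5 and ATG7, of the enzymes that attach ATG8 proteins to lipid, did not pass the FDR in either CM, with values from −0.25 to 0.13.

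The transcription factors differed. TFE3 stood at 98.6 and 106 CPM in HCT-8, 90.3 and 78.5 in own CM, 75.0 and 72.1 in resistant CM, and 60.6 and 59.8 in HCT-8/FU. No groups overlapped. TFE3 fell by 0.29 on the log2 scale in own CM (standard error 0.088, adjusted p = 0.031) and by 0.48 in resistant CM (standard error 0.086, adjusted p = 0.00085, edgeR quasi-likelihood test, BH-adjusted). Of the alternatives, 13 of 19 kept the first of these calls, which was −0.19 without own CM replicate 2, and 19 of 19 the second. With the GC correction the values of TFE3 were −0.42 in own CM and −0.46 in resistant CM, both past the FDR. TFEB lay between 6.21 and 10.2 CPM in the 8 libraries, with log2 fold changes of 0.31 and 0.27 (adjusted p = 0.28 and 0.29, edgeR quasi-likelihood test, BH-adjusted), a level at which changes of this size were not detectable.

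Of the 7 lysosomal proteases, 5 rose in own CM and none fell, where 9.04% and 10.4% of all tested genes did so. Their median log2 fold change was 0.38. CTSA, a serine carboxypeptidase that also protects β-galactosidase, stood at 134 and 132 CPM in HCT-8, 201 and 184 in own CM, 149 and 152 in resistant CM, and 137 and 139 in HCT-8/FU. Both libraries in own CM lay above all others. It rose by 0.53 in own CM (standard error 0.074, adjusted p = 0.00018), and in resistant CM the value was 0.18 (adjusted p = 0.089, edgeR quasi-likelihood test, BH-adjusted).

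CTSZ, a carboxypeptidase of the cysteine cathepsins, stood at 148 and 133 CPM in HCT-8, 224 and 194 in own CM, 174 and 162 in resistant CM, and 155 and 175.5 in HCT-8/FU. Own CM was again the highest group. CTSZ rose by 0.57 in own CM (adjusted p = 0.00054) and by 0.27 in resistant CM (adjusted p = 0.046, edgeR quasi-likelihood test, BH-adjusted), the second of which was lost with the GC correction (0.22) and without any 1 of the 4 libraries compared. Without HCT-8 replicate 2 the first was 0.43 (adjusted p = 0.052). The cysteine proteases CTSH and CTSB rose in own CM by 0.50 and 0.38, and CTSD by 0.34 (adjusted p = 0.00052, 0.00086 and 0.0036 by edgeR quasi-likelihood test, BH-adjusted). CTSL, with 0.16, and the tripeptidyl peptidase TPP1, with −0.01, did not pass the FDR. The rise of CTSD, whose exons hold 63.9% GC, was 0.16 with the GC correction and no longer passed (adjusted p = 0.32), while the other 4 did. On the opposite strand, exons of other genes cover 31.7% of the exonic bases of CTSZ, 23.4% of CTSD and 21.5% of CTSA. Exons of other genes on the same strand cover 27.3% of those of CTSD.

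In resistant CM against HCT-8, CTSZ was the only one of the 7 proteases that rose, and TPP1 fell by 0.21 on the log2 scale (adjusted p = 0.043, edgeR quasi-likelihood test, BH-adjusted), by 0.19 with the GC correction and then not past the FDR. The direct comparison of both CM groups bears on the source of the medium. It shares the own CM libraries with the comparison in which 5 proteases rose, so both results are not independent. In resistant CM against own CM, 6 of the 7 proteases were lower, where 8.49% of all tested genes were. Own CM replicate 1 had 29.6% of records not aligned, and resistant CM has no such library. Without that replicate, the log2 ratios of these 6 ran from −0.20 for CTSZ to −0.39 for CTSD. TPP1, at −0.20, was not past the FDR (adjusted p = 0.057, same edgeR test). The largest of the protease differences was that of CTSD, at −0.46 (standard error 0.071, adjusted p = 0.0003 by edgeR quasi-likelihood test, BH-adjusted). CTSD kept this call in all 19 alternatives, while of the 6 genes CTSD alone kept it without resistant CM replicate 1, and CTSA and CTSD without replicate 2. With the GC correction, 5 of the 7 were lower, against 5.9% of all genes so corrected, without CTSL (−0.33, adjusted p = 0.09, same edgeR test).

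**Figure D4:**
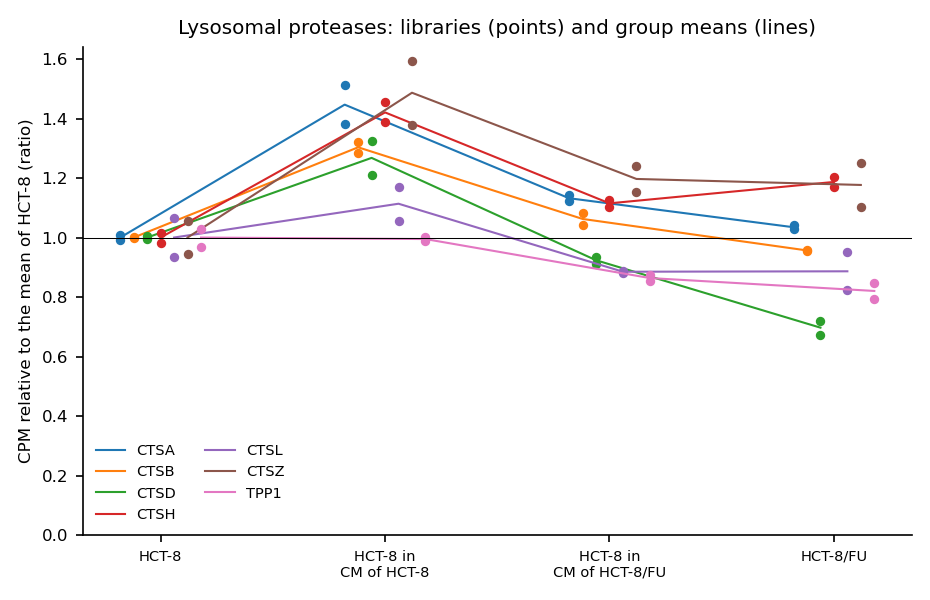
CPM of the 7 lysosomal proteases relative to the mean of HCT-8, in each library (points) and as group means (lines, which join groups for legibility only). CTSA, CTSZ, CTSH, CTSB and CTSD lie above both of their HCT-8 libraries in own CM and nearer to 1 in resistant CM, and CTSD lies lowest in HCT-8/FU.

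Among the glycosidases, lipid enzymes and cofactors, 3 of 8 rose in own CM, where 9.04% of all tested genes did so. GUSB, β-glucuronidase, rose by 0.36, GAA, acid α-glucosidase, by 0.25, and NPC2, the soluble carrier of cholesterol, by 0.54 (adjusted p = 0.0073, 0.025 and 0.021 by edgeR quasi-likelihood test, BH-adjusted). None of the 3 passed with the GC correction, where the values were 0.23, 0.06 and 0.45, and NPC2 was at 0.25 without own CM replicate 1 and at 0.32 without HCT-8 replicate 2. NPC2 stood at 119 and 79.1 CPM in own CM, further apart than in any other group, and at 75.0 and 61.2 in HCT-8, 64.98 and 64.96 in resistant CM, and 70.7 and 81.7 in HCT-8/FU. PSAP stood at 1627 and 1585 CPM in HCT-8, 1678 and 1631 in own CM, 1299 and 1330 in resistant CM, and 1009 and 1028 in HCT-8/FU. Thus PSAP did not differ past the FDR in own CM (0.04), and it fell by 0.29 in resistant CM (adjusted p = 0.0025, edgeR quasi-likelihood test, BH-adjusted). The second value was −0.28 with the GC correction (adjusted p = 0.055) and −0.27 without resistant CM replicate 1 (adjusted p = 0.068). GLA, GLB1, HEXA and LIPA did not pass the FDR in either CM. LIPA, the acid lipase, passed in resistant CM with the GC correction, where its value went from −0.21 to −0.35 (adjusted p = 0.018, same edgeR test).

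The membrane proteins moved both ways. NPC1, which exports cholesterol from the lysosome, stood at 103 and 98.0 CPM in HCT-8, 71.8 and 79.8 in own CM, 76.0 and 70.8 in resistant CM, and 66.0 and 67.02 in HCT-8/FU. All libraries of the other groups lay below those of HCT-8, and NPC1 fell by 0.40 in own CM and by 0.45 in resistant CM (adjusted p = 0.0041 and 0.001, edgeR quasi-likelihood test, BH-adjusted), in all 19 alternatives. SCARB2, the receptor that brings glucocerebrosidase to the lysosome, stood at 254 and 212 CPM in HCT-8, 297 and 281 in own CM, 325 and 321 in resistant CM, and 372 and 387 in HCT-8/FU. It rose by 0.32 and 0.48 (adjusted p = 0.014 and 0.00062, edgeR quasi-likelihood test, BH-adjusted), and the GC correction gave 0.53 and 0.27, of which only the first passed. Without HCT-8 replicate 2, the value in own CM was 0.12 and did not pass. LAMP1, a main glycoprotein of the lysosomal membrane, rose by 0.30 in own CM (adjusted p = 0.014, same edgeR test), a call that 13 of 19 alternatives kept and that was lost with the GC correction (0.24, adjusted p = 0.15), without either HCT-8 library and without own CM replicate 1. LAMP2, its relative, rose by 0.42 in resistant CM (adjusted p = 0.00089, same edgeR test), but the value was 0.04 with the GC correction. In own CM it went the other way, from 0.10 to 0.45 with the correction, where it passed (adjusted p = 0.007, same edgeR test). LAMP2 has the lowest GC content of the 37 genes. The calcium channel MCOLN1 did not pass the FDR in either CM.

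Of the 6 genes of the vacuolar ATPase, ATP6AP1, an accessory subunit, rose by 0.33 in own CM (adjusted p = 0.0091, edgeR quasi-likelihood test, BH-adjusted), and the value was 0.24 with the GC correction (adjusted p = 0.11). In resistant CM, ATP6V0A1 of the membrane sector and ATP6V1H of the cytoplasmic sector fell by 0.39 and 0.44 (adjusted p = 0.0031 and 0.0086 by edgeR quasi-likelihood test, BH-adjusted). Both falls also passed with the GC correction, at −0.41 and −0.54. The remaining 3, ATP6V0D1, ATP6V1A and ATP6V1B2, had values from −0.25 to 0.16 in both CM groups and did not pass. After the GC correction ATP6V1B2 fell in resistant CM, from −0.25 before to −0.46 after it (adjusted p = 0.0045, same edgeR test).

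Between both CM groups as a whole, 2 of the 37 genes were higher and 11 lower in resistant CM at the FDR, where 11.2% and 8.49% of all tested genes were. NPC2 alone was DE and lower and none was DE and higher, against 1.28% and 7.97% of all tested genes. The median log2 fold change was −0.21 over the 37 genes and −0.06 over all tested genes. The genes past the FDR and lower were the 6 proteases, NPC2, GUSB and PSAP among the other enzymes, ATP6AP1 and MAP1LC3B, and those higher were LAMP2 and ATG5. The number of lower genes was 3 and 4 without resistant CM replicate 1 or 2, 17 with a term for the 3 libraries with many records not aligned, and 8 with the GC correction, against 5.9% of all genes so corrected. With that correction none was higher, against 4.05%, and LAMP2 was lower, at −0.41 (adjusted p = 0.012 in edgeR quasi-likelihood test, BH-adjusted). It also made LIPA and ATP6V1B2 pass as lower, both at −0.42 after −0.21 and −0.03 before it, and ended the calls of CTSL, GUSB, NPC2, PSAP, ATP6AP1, MAP1LC3B and ATG5. NPC2, at −0.59 (standard error 0.15, adjusted p = 0.011, same edgeR test), was at −0.28 without own CM replicate 1 and at −0.87 without own CM replicate 2.

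**Figure D5:**
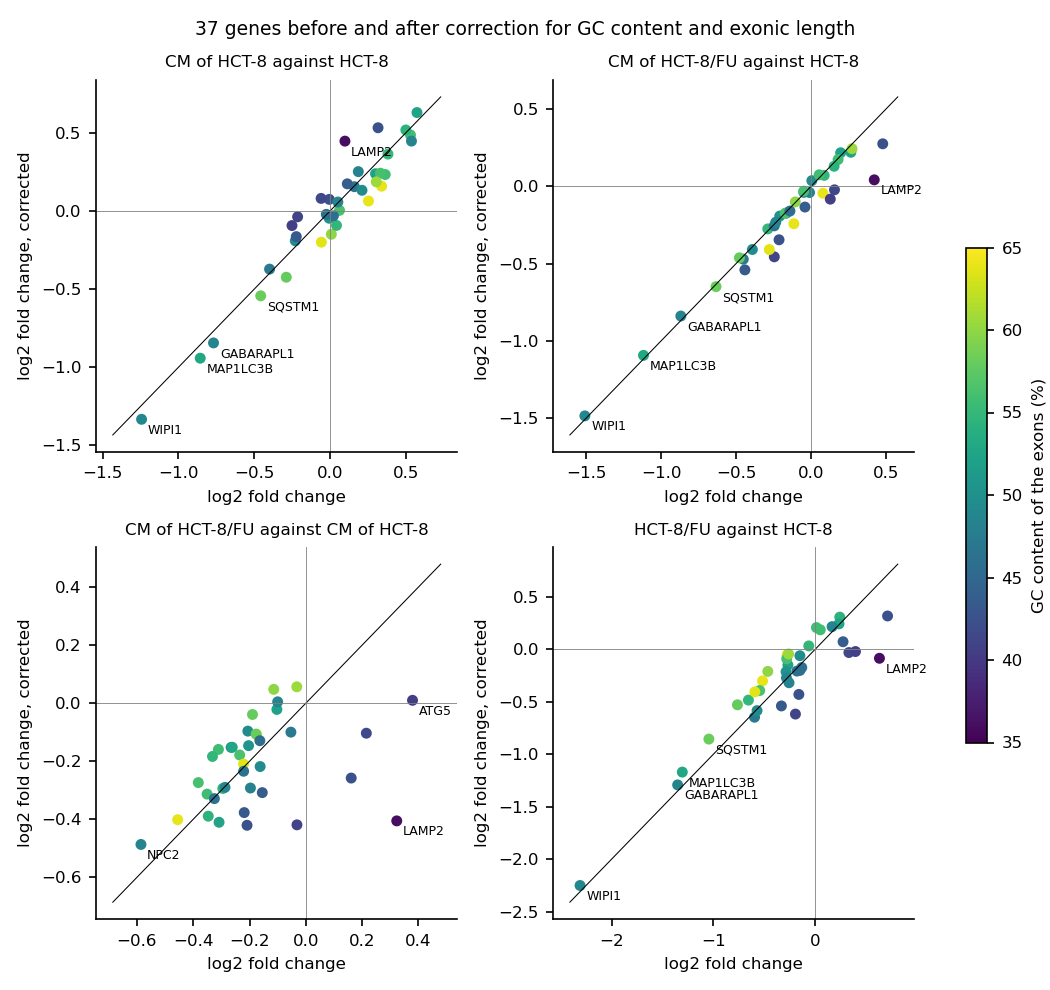
Log2 fold change of each of the 37 genes before (horizontal) and after (vertical) correction of the libraries for GC content and exonic length in 4 comparisons, coloured by the GC content of the exons, with the line of equality. WIPI1, MAP1LC3B, GABARAPL1 and SQSTM1 stay far below 0 in the 3 comparisons with HCT-8, while LAMP2, with the lowest GC content, crosses 0 in resistant CM against own CM and in HCT-8/FU against HCT-8.

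The resistant line itself was compared with HCT-8 in unconditioned medium, the same HCT-8 libraries that served as control for CM. In HCT-8/FU, 5 of the 37 genes were higher and 18 lower at the FDR, where 18.6% and 18.1% of all tested genes were. DE were 2 that were higher and 8 that were lower, against 13.2% and 8.12%, and the median was −0.26 against 0.01 over all tested genes. WIPI1 was 4.96-fold lower in HCT-8/FU, which is −2.31 on the log2 scale (standard error 0.12, adjusted p = 4.0e-09). GABARAPL1 was 2.55-fold lower at −1.35, MAP1LC3B 2.47-fold lower at −1.31 and SQSTM1 2.06-fold lower at −1.05 (adjusted p = 1.6e-07, 3.7e-08 and 2.7e-08). All 4 stayed DE and lower in all 19 alternatives. Also DE and lower were TFE3 (−0.76), PSAP (−0.66), NPC1 (−0.60) and ULK1 (−0.59), with adjusted p-values from 8.5e-07 for PSAP to 6.5e-05 for NPC1, all from edgeR quasi-likelihood test, BH-adjusted. ULK1 passed both thresholds in 13 of 19 alternatives, PSAP and NPC1 in 16 and TFE3 in 17. TFE3, PSAP and ULK1 still fell with the GC correction but were no longer DE, at −0.53, −0.49 and −0.41, while ATP6V1B2 (−0.62 after −0.19) and ATP6V0A1 (−0.59 after −0.57) became DE and lower. At the FDR alone 2 were then higher and 15 lower, against 11.9% and 16.3% of all genes so corrected.

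Both genes that were DE and higher in HCT-8/FU encode membrane proteins, with a GC content of 42.4% for SCARB2 and 36.0% for LAMP2. SCARB2 rose by 0.71 and LAMP2, at 80.2 and 87.2 CPM in HCT-8 and 130 and 131 in HCT-8/FU, by 0.63 (adjusted p = 8.3e-06 and 1.4e-05, edgeR quasi-likelihood test, BH-adjusted). With the GC correction, SCARB2 was at 0.32 and LAMP2 at −0.087, so neither was DE. CTSD fell by 0.52 (adjusted p = 4.5e-05, same edgeR test) and by 0.30 with the correction, and the other proteases lay between −0.29 and 0.24. The correction also ended the falls of LAMP1, MCOLN1, TPP1, GAA, ATP6AP1 and ATG7, and made LIPA (−0.43) and HEXA (−0.32) pass as lower. Of the vacuolar ATPase genes, 4 of 6 fell, where 18.1% of all tested genes did, among them ATP6V0A1 by 0.57 and ATP6V0D1 by 0.55. ATP6V1A rose by 0.33 before and was at −0.032 after the correction. ATG5 likewise rose by 0.39 and was at −0.023 after it.

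A wider list of 139 other genes of the lysosome and of autophagy, of which 132 were tested, was examined in the same fit. At the FDR, lysosomal enzymes and cofactors rose in own CM in 10 of 30 cases and fell in 1, where 9.04% and 10.4% of all tested genes did so. With the GC correction 4 rose and 0 fell, against 5.6% and 6.52% of all genes so corrected. In resistant CM 5 of the 30 rose and 4 fell, near the 13% and 11.7% of all tested genes. Of 17 genes that start the autophagosome, 8 fell and none rose in own CM, and 9 fell and 1 rose in resistant CM. Of all tested genes, 10.4% and 11.7% fell and 9.04% and 13% rose. With the GC correction 7 and 9 fell and none rose. Of all genes so corrected, 6.52% and 13.7% fell and 5.6% and 7.3% rose. Over all 132 genes, 10 rose and 25 fell in own CM and 14 rose and 41 fell in resistant CM, with a median log2 fold change of −0.02 and −0.10. The numbers that rose were no larger a share than the 9.04% and 13% of all tested genes, and those that fell were a larger one than the 10.4% and 11.7%. In HCT-8/FU, 27 rose, near the 18.6% of all tested genes, and 50 fell, where 18.1% of all did. After the GC correction, 5 rose and 15 fell in own CM, 4 rose and 40 fell in resistant CM, and 9 rose and 48 fell in HCT-8/FU. Of all genes so corrected, 5.6% rose and 6.52% fell in own CM, 7.3% and 13.7% in resistant CM, and 11.9% and 16.3% in HCT-8/FU.

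LAMP3, a lysosomal membrane protein of the LAMP family, had the same order of groups as WIPI1. It stood at 146 and 156 CPM in HCT-8, 58.7 and 58.8 in own CM, 53.2 and 53.5 in resistant CM, and 33.6 and 31.4 in HCT-8/FU. The fall was 2.58-fold in own CM and 2.84-fold in resistant CM (adjusted p = 2.7e-07 and 4.9e-08, edgeR quasi-likelihood test, BH-adjusted), and 4.62-fold in HCT-8/FU. ATG13, of the ULK1 complex, fell by 0.65 in resistant CM and by 1.07 in HCT-8/FU. CALCOCO2, a cargo receptor like SQSTM1, fell by 0.75 in resistant CM, and VMP1, which acts on the growing membrane, by 0.71. CTSF, a cysteine protease, rose by 0.71 in own CM (adjusted p = 0.00011, edgeR quasi-likelihood test, BH-adjusted) and was at 0.56 with the GC correction.

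RB1CC1, the scaffold of the ULK1 complex, had another pattern, at 48.3 and 40.2 CPM in HCT-8, 24.9 and 16.4 in own CM, 49.8 and 50.01 in resistant CM, and 84.8 and 76.4 in HCT-8/FU. Own CM was the lowest group. Its log2 fold change was −1.15 in own CM against HCT-8 and 1.34 in resistant CM against own CM (adjusted p = 0.00013 and 1.3e-05, edgeR quasi-likelihood test, BH-adjusted). With 37.8% GC, RB1CC1 was at −0.88 and 0.76 after the GC correction. GNPTAB, which makes the mannose 6-phosphate tag that sends enzymes to the lysosome, rose by 0.96 in resistant CM and by 1.27 in HCT-8/FU against HCT-8, and by 0.76 and 0.87 after the correction. Of the 17 genes of the wider list that start the autophagosome, 2 were DE and higher and 7 DE and lower in HCT-8/FU. The shares of all tested genes were 13.2% and 8.12%. Among them ATG2B and RB1CC1 each rose by 0.90 and ATG101 fell by 1.24. After the correction ATG2B was at 0.50 and ATG101 at −1.05. RB1CC1 was then at 0.29 and no longer passed the FDR (adjusted p = 0.13, edgeR quasi-likelihood test, BH-adjusted).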

How the data were processed

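Per the labels and the study's methods, mRNA of 8 libraries in 4 groups was captured on beads and sequenced as read pairs. The deposited values are raw counts for each library, which the authors made with HISAT2 (build GRCh38) and HTSeq 0.11.2 (Ensembl genes) and did not normalize. SAMtools 1.18 and DESeq2 1.30.0 are also named in the submitters' processing notes. No source used here gives the strand setting of the counting, and the labels name Ham's medium where the methods name RPMI. Deposited tables of the authors' own comparisons hold fold changes and p-values and were not used. All columns of values by sample were used.

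The analysis used edgeR 4.0.16 in R 4.3.3, with TMM normalization with HCT-8 replicate 2 as reference, filterByExpr, and 1 quasi-likelihood fit of 4 group means to all libraries. P-values were adjusted by Benjamini-Hochberg (BH) over 20305 genes. DE means an FDR up to 0.05 with a log2 fold change of 0.58 or more in size. A standard error is the size of the log2 fold change over the root of its F statistic. Replicates differed by more than sampling noise (median chi-square of a gene 1.02 to 2.30, against 0.455) and were kept apart. The replicate numbers do not pair the samples. Positions, lengths and GC contents came from GENCODE 44 on the same build, for 19857 of the tested genes. The correction for GC content and length subtracts a spline (5 degrees of freedom) by library, and so removes any change that follows either. DESeq2 1.42.0 was an alternative, and the fits were tested on simulated data. The members and the gene lists were chosen with earlier results of these data known. Genes given with fuller statistics came mainly from a fixed list and, in each comparison, from members past the FDR with the smallest adjusted p whose groups did not overlap. The second set, which brought in CTSA, CTSH and CTSZ, was thus picked on these same tests. From the wider list only some of the leading DE genes are described. The alternative with 5 libraries was chosen after seeing the data.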

Additional observations from a re-analysis of the deposited data

Results flagged for a closer look

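Between HCT-8 cells in resistant CM and in own CM, 2 of the 37 genes were higher and 11 lower past the FDR, where 11.2% and 8.49% of all tested genes were (edgeR quasi-likelihood test, BH-adjusted). Without resistant CM replicate 1 these were 0 and 3 genes, and without replicate 2 they were 1 and 4. Lower in resistant CM were NPC2, with a log2 fold change of −0.59, and the proteases CTSD (−0.46), CTSA (−0.35), CTSH (−0.35), CTSL (−0.32), CTSZ (−0.31) and CTSB (−0.30). Also lower were the pump subunit gene ATP6AP1 (−0.38), PSAP (−0.33), GUSB (−0.31) and MAP1LC3B (−0.26). Higher were LAMP2 (0.32) and ATG5 (0.38), which the GC correction brought to −0.41 and 0.01. The correction left CTSD, CTSA, CTSH, CTSZ and CTSB past the FDR and ended the calls of NPC2 (−0.49), CTSL (−0.33), ATP6AP1 (−0.27), PSAP (−0.18), GUSB (−0.16) and MAP1LC3B (−0.15), whose adjusted p then lay between 0.078 for ATP6AP1 and 0.38 for GUSB by the same edgeR test. The log2 fold changes of all tested genes had a Spearman correlation of −0.398 with GC content in this comparison, and the part of that trend in these differences beyond the corrected values was not tested.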

How the results depend on the processing

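With the FDR alone in place of both thresholds, the number of members called was 17 (11 higher, 6 lower) in own CM against HCT-8, 15 (3 and 12) in resistant CM against HCT-8, 13 (2 and 11) in resistant CM against own CM, and 23 (5 and 18) in HCT-8/FU against HCT-8. With both thresholds, in own CM against HCT-8, the GC correction gave 1 higher DE gene (CTSZ), with and without the replicate block, and leaving out 1 library at a time gave 3 to 6 DE genes, of which 0 to 3 were higher. In resistant CM against HCT-8, 1 gene was higher with only the 5 libraries with under 15% of records not aligned, and 0 to 1 were when 1 library was left out. The single DE gene between both CM groups, NPC2, was lost (0 DE genes) with DESeq2's size factors, another TMM reference library, no filter, DESeq2, the 2 groups alone, the replicate block, the correction with or without the block, the term for libraries with many records not aligned, and the 5 libraries, and the count was 0 to 1 when 1 library was left out. In HCT-8/FU against HCT-8, the higher genes were 0 with the correction, with or without the block, 1 with the 5 libraries and 1 to 2 when 1 library was left out, and another TMM reference library gave 5 lower genes. The correction, without and with the replicate block, turned LAMP2 to −0.41 and −0.40 between both CM groups and to −0.087 and −0.078 in HCT-8/FU against HCT-8, where it also turned ATP6V1A to −0.032 and −0.031 and ATG5 to −0.023 and −0.024. Same-numbered replicates of the groups compared had correlations of their deviations from −0.0862 to 0.132, so the numbers are not treated as a pairing, and the replicate block changed no other count by more than 1.5 times. Where 1 library was left in a group, it was assumed to vary like the other groups. Where HCT-8 replicate 2 was left out, edgeR picked another TMM reference. Every value or call given without that library thus also carries a change of scaling. The shallowest library holds 5804124 counts, and for TFEB, with 43 counts there, small changes were not detectable.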
